A study of Caenorhabditis elegans with 2 samples.

Results

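The 7 T-box genes described here are *tbx-38*, *tbx-37*, *tbx-2*, *tbx-8*, *tbx-9*, *tbx-11* and *mls-1* of *Caenorhabditis elegans*, out of 19973 nuclear protein-coding genes. They were selected by name because *tbx-38* has a region of the optimal list in its promoter, so the values at *tbx-38* are a description and no test was made on them. Regions were taken for a gene when their summit, the base of highest signal, lay between 2000 bp upstream of its 5' end and its 3' end. This gave 7 regions of the pooled list, 1 of the optimal list, 9 of the list of replicate 3 and 9 of the list of replicate 4.

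The method was ChIP-seq, which sequences the DNA that an antibody pulls down together with a chromatin protein. The protein was ETS-7, a DNA-binding factor of the ETS family. Both samples are early embryos of hermaphrodite strain OP487, a transgenic line that stably expresses ETS-7 with a GFP-FLAG tag at its C-terminus, taken 3 hours after synchronization by egg bleaching, and the antibody was described as against GFP. They form 1 group of 2 biological replicates, numbered 3 and 4, with no second genotype, treatment or stage, so no difference between conditions could be tested. Whole embryos mix all cell types, so strong binding in few cells and weak binding in many cannot be told apart, and region lists carry no expression values with which to check the stage. The labels name an insertion targeting *ets-7* and do not say whether untagged ETS-7 remains. The pooled and replicate lists hold, by their deposited description, peaks together with background, so a region at their lower end is not by itself a binding site. The optimal list is the one the authors thresholded for reproducibility between replicates.

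T-box proteins bind DNA through a conserved domain of that name and switch on or repress genes that set cell fate in early development. In the worm embryo TBX-37 and TBX-38 act redundantly in descendants of the blastomere ABa, where together with Notch signalling they allow mesoderm of the anterior pharynx to form. TBX-2 is required for anterior pharyngeal muscles, TBX-8 and TBX-9 act redundantly in body wall muscle and epidermis during morphogenesis, and MLS-1 specifies uterine muscle later in development. ETS proteins bind sites with a GGAA core, often preceded by CC, on either strand.

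The 2 sequences shown first are the 200 bases before the annotated 5' ends of *tbx-38* and *tbx-37*, because the summits of their pooled regions lie in them and they differ in the ETS hexamer CCGGAA. They are on the strand of the genes (the reverse strand of ce11), at III:11786062-11786261 and III:11227126-11227325, and overlap no annotated exon. Capitals mark TTCCGG, the reverse complement of CCGGAA, or TTCC, that of the core GGAA alone.
tbx-38: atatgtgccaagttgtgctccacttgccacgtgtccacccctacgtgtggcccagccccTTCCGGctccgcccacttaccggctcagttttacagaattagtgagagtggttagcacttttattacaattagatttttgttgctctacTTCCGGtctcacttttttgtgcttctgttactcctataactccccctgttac
tbx-37: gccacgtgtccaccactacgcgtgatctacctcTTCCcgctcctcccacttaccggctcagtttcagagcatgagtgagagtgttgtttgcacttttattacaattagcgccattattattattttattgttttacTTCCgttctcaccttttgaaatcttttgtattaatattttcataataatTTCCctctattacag

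*tbx-38* lies at III:11784082-11786061 on the reverse strand. Its region in the pooled list spans III:11785891-11786370, with the summit in intergenic sequence 70 bp upstream of the 5' end, and that end is the nearest of any protein-coding gene. The pooled signal, a value per region given by the authors on a scale they do not state, was 92.96 and ranked 419 of 11626, above 96.4% of pooled regions. In the replicates' own lists the overlapping region had a signal of 48.0 in replicate 3 (rank 436 of 16227) and 44.4 in replicate 4 (rank 520 of 15533), a mean of 46.2 ± 2.54 (SD, n = 2). The summits of the replicates fell 3 bp and 22 bp from the pooled summit. All 595 optimal regions were matched in both replicates, so a match at *tbx-38* follows from its place in that list.

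The optimal list is the 595 pooled regions of highest signal. Its last region had a signal of 80.74 and the next pooled region outside it 80.70, and *tbx-38*, at 92.96, was inside this limit. Among optimal summits that lie in a promoter, meaning the 1000 bp before and 200 bp after a transcript's 5' end, the *tbx-38* region was 205th by signal, and their median signal was 105.4. Among the 244 of these with no tRNA, snoRNA, snRNA, miRNA or rRNA gene within 500 bp it was 160th, and among the 48 of those on chromosome III it was 36th, below the middle of each of these sets. The closest gene of these classes to its summit was a tRNA gene 6651 bp away. A noncoding RNA gene of none of these classes, *C24H11.10*, lies inside *tbx-38* at III:11785745-11785824.

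**Figure D1:**
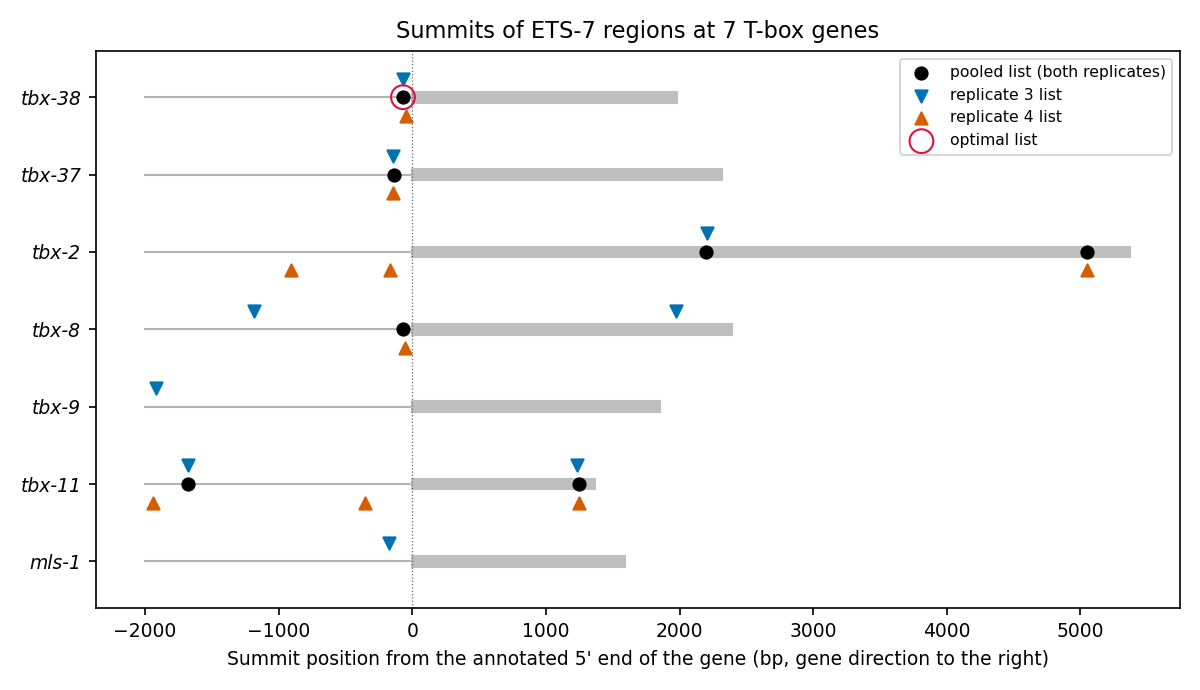
Summit positions, in bp from the annotated 5' end with the gene direction to the right, of all regions taken for the 7 T-box genes in the pooled list (circles), replicate 3 (downward triangles) and replicate 4 (upward triangles), with a ring for the optimal list. Grey bars are genes and thin lines the 2000 bp before them. The pooled summits of tbx-38, tbx-37 and tbx-8 lie within 138 bp of the 5' end, and tbx-9 and mls-1 have no pooled summit.

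*tbx-37*, at III:11224808-11227125 on the reverse strand, encodes the protein that acts redundantly with TBX-38. The 5' ends of the 2 genes are 558936 bp apart. Its pooled region, III:11227023-11227502, also had an intergenic summit close to the 5' end, 138 bp upstream. The pooled signal was 40.05 and ranked 3823, above 67.1% of pooled regions, and it was not in the optimal list. Replicate 3 had a signal of 22.5 (rank 4566) and replicate 4 of 15.8 (rank 9037), a mean of 19.2 ± 4.69 (SD, n = 2). In each replicate the signal at *tbx-38* was above that at *tbx-37*. As *tbx-38* was chosen for its place in the optimal list and *tbx-37* is outside it, this order is a description. The replicates' summits at *tbx-37* lay 5 bp and 9 bp from the pooled one.

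The 2 genes are similar in sequence, which bears on how reads are placed. Over their coding sequences, 909 bases for *tbx-38* and 939 for *tbx-37*, 79.1% of alignment columns were identical, the highest among the 21 pairs of the 7 genes, whose median was 47.3%. The pair *tbx-8* and *tbx-9* followed with 62.1%. The 200 bases upstream of *tbx-38* and *tbx-37* were 63.7% identical, against a median of 43.6% over the 21 pairs. All 36-base stretches of both pooled regions, 445 in each, occurred once in the genome on either strand, and so did all 50-base stretches. Their whole gene windows shared 21 such 36-base stretches, none of them in these regions. No source used here gives the length of the reads.

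The *tbx-38* region held the hexamer CCGGAA 3 times and the *tbx-37* region not at all. In 2 copies on the strand opposite to the gene, the hexamer's end farther from the gene lay 52 bp and 141 bp before the 5' end. These copies were centred 20 bp and 68 bp from the pooled summit. The remaining copy lay on the strand of the gene, 31 bp inside it, in coding sequence and 104 bp from the summit. The copy nearest to the summit is part of the longer sequence ACCGGAAG. In an alignment from 300 bp before to 100 bp after the 5' ends, 78.2% of 363 aligned positions were the same in both genes. Each of the 3 hexamers aligned without gaps to *tbx-37* sequence that differed at 1 of 6 bases and kept GGAA. Counted from the first base of CCGGAA, with the base of *tbx-38* first, the differences were C1A at the copy near the summit, C2G at the copy 141 bp upstream and C2T at the copy in coding sequence. Near each copy the genes shared 36, 37 and 37 of 46 positions. What these differences do to the signal was not tested.

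**Figure D2:**
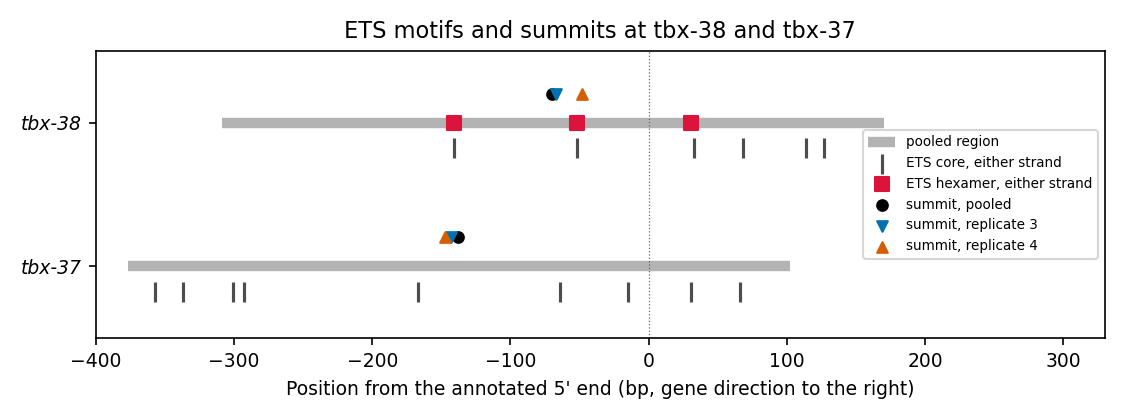
Positions of the hexamer CCGGAA (squares) and of the GGAA core (ticks) in the pooled regions (grey bars) of tbx-38 and tbx-37, in bp from the annotated 5' end with the gene direction to the right. Circles and triangles above each bar are the summits of the pooled list and of the replicates. tbx-38 has 3 hexamers and tbx-37 none.

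The frequency of these sequences sets the scale. Within 100 bp of the summit, CCGGAA occurred on either strand in 2 of the 7 pooled regions of the T-box genes, those of *tbx-38* and of the far end of *tbx-11*, against 15.6% of 595 optimal and 14.1% of 11626 pooled regions. ACCGGAAG, which contains it, occurred in the same 2 regions, against 6.72% of optimal and 3.31% of pooled regions. From 250 bp before to 50 bp after the 5' end, CCGGAA was present at *tbx-38* alone of the 7 genes, against 8.56% of 19973 genes, and ACCGGAAG likewise, against 0.551%. GGAA was present at all 7 genes and at 95.1% of all genes, so its presence does not set the 7 genes apart. The T-box element AGGTGTGA was in none of the 7 pooled regions and in 1.26% of all pooled regions over their whole length.

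The other octamer lay at *tbx-11*. It is shown beside that of *tbx-38* because the 2 pooled regions with it are the 2 of highest signal among the T-box genes. The choice of *tbx-38* for its place in the optimal list partly fixes this order, so the order is a description. Whether the octamer goes with the signal was not tested. Both octamers are given on the strand that reads ACCGGAAG, in capitals, at III:11786096-11786125 on the forward strand and III:6045777-6045806 on the reverse strand.
tbx-38 octamer: aaaaaagtgagACCGGAAGtagagcaacaa
tbx-11 octamer: gtaaaactggaACCGGAAGcctttgttgaa

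*tbx-11* (III:6045615-6046981, reverse strand) had the next highest region, III:6045492-6045971, and it lay at the far end of the gene. The summit was in the 3' UTR, 1249 bp downstream of the 5' end of *tbx-11*, and no other protein-coding gene had a closer 5' end. The octamer was centred 60 bp from the summit, in coding sequence. The pooled signal was 67.7 (rank 899), below the optimal limit, with 30.4 in replicate 3 (rank 1601) and 36.4 in replicate 4 (rank 874), a mean of 33.4 ± 4.25 (SD, n = 2). A pseudogene on the opposite strand ends 537 bp from the gene at this side. A weaker region, III:6048422-6048901, had its summit 1681 bp upstream, a pooled signal of 28.0 (rank 11074) and signals of 17.5 and 15.3 in the replicates. The summits of replicate 4 and the pooled list were 262 bp apart there, and that of replicate 4 lay in a coding exon of the next gene, *F40H6.5*. Another region, 355 bp upstream of the 5' end, appeared in replicate 4 alone, with a signal of 13.4 (rank 14147).

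*tbx-2* (III:5130923-5136296, reverse strand), the gene for pharyngeal muscle, is the longest of the set, and the replicates placed their regions at different points of it. A pooled region in an intron, 2199 bp downstream of the 5' end (III:5133857-5134336, signal 36.3, rank 5179), overlapped a region of replicate 3 with a signal of 23.8 and none of replicate 4. A pooled region in the 3' UTR, 5045 bp downstream (III:5131011-5131490, signal 31.2, rank 8034), overlapped a region of replicate 4 with a signal of 26.4 and none of replicate 3. Replicate 4 also had summits 170 bp and 906 bp upstream, with signals of 21.0 and 15.04, in the promoter, and neither overlapped a pooled region or one of replicate 3. None of the *tbx-2* regions was thus found in both replicates.

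*tbx-8* and *tbx-9*, the muscle and epidermis pair, have their 5' ends 5491 bp apart and are transcribed away from each other. *tbx-8* (III:10347349-10349740, forward strand) had a pooled region 73 bp upstream, III:10347036-10347515, with a low signal of 29.5 (rank 9528). It overlapped a region of replicate 4 with a signal of 19.98 (rank 4573) and none of replicate 3. Replicate 3 instead had summits 1186 bp upstream and 1976 bp downstream, with signals of 15.6 and 14.99, each without a counterpart in replicate 4. *tbx-9* (III:10340006-10341858, reverse strand) had no pooled region, no region in replicate 4, and 1 in replicate 3, 1918 bp upstream with a signal of 15.8 (rank 13569).

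*mls-1* (III:7460341-7461934, forward strand), the uterine muscle gene, likewise had no pooled region and none in replicate 4. Its 1 region, in replicate 3, had its summit 175 bp upstream with a signal of 16.9 (rank 11267), and that summit is inside the noncoding RNA gene *H14A12.9* on the opposite strand, III:7460073-7460200. For *tbx-9* and *mls-1* the signal in replicate 3 was below the median of that list, 18.9.

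Of the 7 pooled regions of the T-box genes, 4 overlapped a region of both replicates, 1 each at *tbx-38* and *tbx-37* and 2 at *tbx-11*. For these the log2 ratio of replicate 3 to replicate 4 ran from -0.26 to 0.50, with a median of 0.15. Over the 6764 pooled regions matched in both replicates, 58.2% of the list, the median was 0.13 and the SD 0.525, so the 4 ratios lie within 1 SD of the median of all regions. In the lists of the replicates, 4 of 9 regions of replicate 3 and 4 of 9 of replicate 4 overlapped a region of the other. By rank in the pooled list, the order was *tbx-38*, *tbx-11*, *tbx-37*, *tbx-2*, *tbx-8*. The pooled list was made from the same 2 replicates, and *tbx-38* was chosen for its place in it, so the order is a description. At *tbx-2* and *tbx-8* no region was matched in both replicates.

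**Figure D3:**
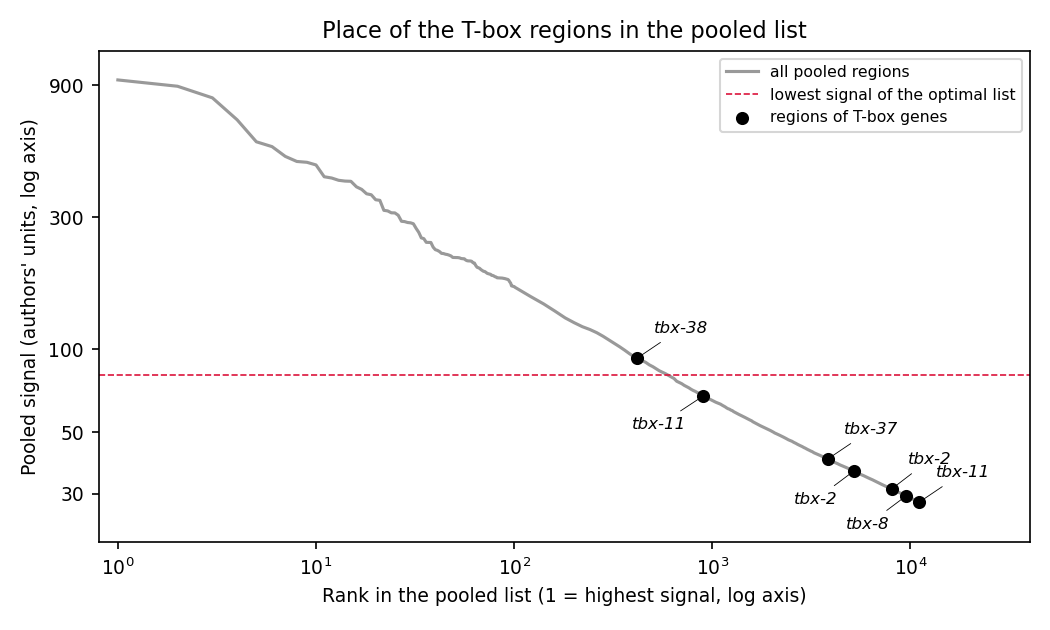
Pooled signal against rank for the pooled list (grey line, thinned after rank 100), both on log axes, with the 7 regions of the T-box genes as points. The tbx-38 point (signal 92.96) is above the dashed line at the lowest optimal signal, 80.74, and the other 6 are below it.

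A pooled summit was found for 5 of 7 genes, or 71.4%, against 40.0% of all nuclear protein-coding genes and 52.3% of the 2640 on chromosome III, where all 7 lie. Their windows had a median length of 3980 bp, against 4027 bp over all genes. Among the 1459 genes of chromosome III with windows as long as theirs, 3367 to 7374 bp, the share was 50.4%. In replicate 3 all 7 genes had a summit, against 60.8% of the genes of chromosome III and 50.2% of all genes. In replicate 4 there were 5 of 7, against 60.8% on chromosome III and 48.7% of all genes. With 7 genes, 1 gene more or less moves such a share widely, and the differences were not tested. In promoters alone, 3 of 7 genes had a pooled summit, against 21.5% of all genes. No promoter share for chromosome III is given, so this contrast does not take the chromosome into account. An optimal summit was found for 1 of 7 genes, *tbx-38*, against 4.77% on chromosome III and 3.37% of all genes. That gene is the reason the set was chosen, and nothing is read from this count. The 7 pooled regions had a median rank above 55.5% of the pooled list. The genes' 9 regions per replicate had a median rank above 37.2% of the list in replicate 3 and 70.6% in replicate 4. Only 4 of the 9 in each overlapped a region of the other, so these medians cover partly different regions. Where a pooled region was matched in both, replicates 3 and 4 placed it above 97.3% and 96.7% of their lists at *tbx-38*. At *tbx-37* the values were 71.9% and 41.8%. At the regions of *tbx-11* they were 90.1% and 94.4%, and 37.2% and 35.8%. None of the 7 pooled regions had a small RNA gene of the 5 classes within 500 bp. Most optimal summits in promoters also had none within that distance. No share over all pooled regions is given, so this count does not set the 7 regions apart.

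Of 15 further genes of the family, 4 of them on chromosome III, 3 had a pooled summit and none an optimal one. The shares of all genes were 40.0% and 3.37%. In replicate 3 there were 4 and in replicate 4 there were 6, against 50.2% and 48.7% of all genes. The 3 genes were *tbx-7* (pooled signal 41.9, with 16.5 in replicate 3 and 21.8 in replicate 4, in an intron), *mab-9*, needed for hindgut and male tail fates (40.04, with 26.2 and 16.4, in an intron), and *tbx-34* (39.4, with 21.2 and 16.4). The region of *tbx-34* is also in the promoter of *wht-8*, whose 5' end is nearer. Both *tbx-7* and *tbx-34* are on chromosome III, where 52.3% of genes had a pooled summit, and *mab-9* is on chromosome II. The 7 genes described first are all on chromosome III. The part of the chromosome in the difference between 5 of 7 and 3 of 15 genes was not tested. All 3 pooled signals are below those at *tbx-38* and at the far end of *tbx-11*. That of *tbx-7* is above the 40.05 at *tbx-37*, and those of *mab-9* and *tbx-34* are slightly below it. All 3 are above the highest at *tbx-2* (36.3) and at *tbx-8* (29.5). Among genes with a pooled region, the median of the highest signal per gene was 40.05 for the 7 genes and 40.04 for the others. No pooled region was found at *tbx-35*, which specifies fates of the MS blastomere, or at *sea-1*, an X:A signal element.

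**Figure D4:**
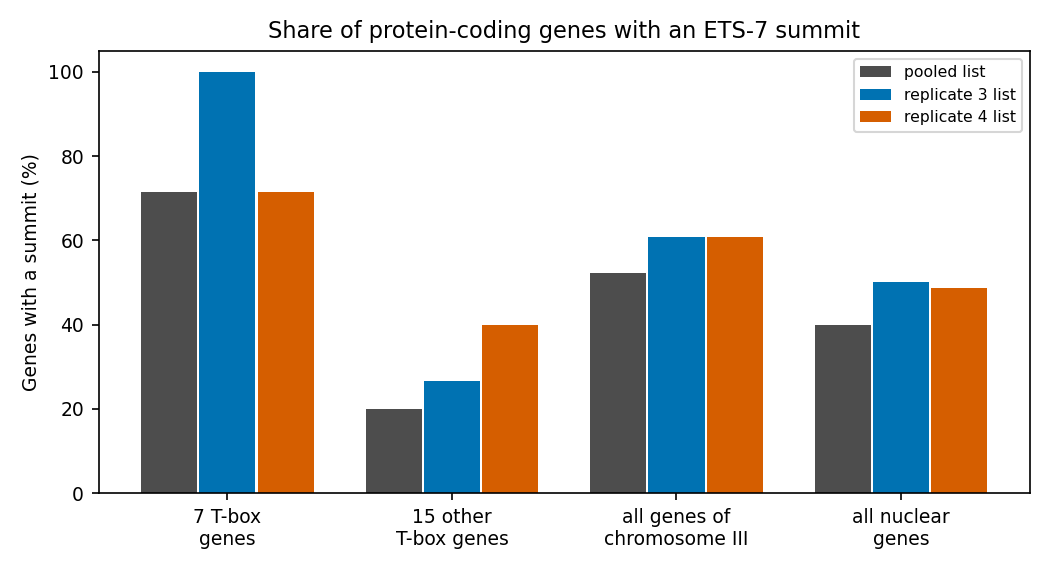
Share of genes with a summit from 2000 bp upstream to the 3' end in the pooled, replicate 3 and replicate 4 lists, in percent, for the 7 T-box genes, the 15 other T-box genes, all genes of chromosome III and all nuclear protein-coding genes. In the pooled list 5 of the 7 genes and 3 of the 15 others have a summit, against 52.3% on chromosome III and 40.0% of all genes. All 7 genes and 4 of the 15 others are on chromosome III.

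Further genes were listed by pathway or tissue, without a check that each works with the T-box factors. Of 19 genes of Notch signalling and ABa fate, 8 had a pooled summit (42.1%), close to the 40.0% of all genes, and 2 had an optimal one (10.5%, against 3.37% of all genes). These were *lag-2*, which encodes a Notch ligand, with a pooled signal of 83.3, 33.7 in replicate 3 and 48.2 in replicate 4, and *sel-8*, which encodes a Notch co-activator, with 82.6 pooled, 27.9 and 58.1. Both were high in replicate 4 (ranks 408 and 264) and lower in replicate 3 (ranks 1149 and 2154). The ligand gene *apx-1* (65.6) and *lag-1*, the DNA-binding effector of Notch (62.6), followed. The Notch receptor gene *glp-1* had no region in any list. Neither did the microRNA gene *lsy-6*, known to be primed by TBX-37 and TBX-38 in a taste neuron lineage.

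Of 20 pharynx and mesendoderm genes, 8 had a pooled summit, the same share as the 40.0% of all genes, and 1 had an optimal one (5.0%, against 3.37% of all genes). That gene was *pop-1*, the TCF factor of Wnt signalling. Its region (signal 102.8, with 49.6 and 54.9 in the replicates) has its summit inside the snoRNA gene *W10C8.17*. *eya-1*, a pharyngeal regulator, had 46.3, and *pha-4*, the FoxA factor of pharynx identity, 43.3. Of 14 body muscle and epidermis genes, 12 had a pooled summit (85.7%), against 52.3% on chromosome III and 40.0% of all genes, and 1 had an optimal one (7.14%, against 3.37% of all genes). Their windows were longer, with a median of 6620.5 bp against 4027 bp over all genes, and 7 lie on chromosome III. The part of either in this share was not tested. The optimal region was upstream of *nhr-25*, a nuclear receptor of epidermal development (90.3, with 42.4 and 47.2), and the next were at the Hox gene *ceh-13* (70.01) and the muscle factor gene *hlh-1* (58.1).

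Of 8 genes for SUMO conjugation and Groucho repressors, through which TBX-2 is known to act in part, 5 had a pooled summit (62.5%, against 40.0% of all genes) and 1 an optimal one (12.5%, against 3.37% of all genes). It was in an intron of *lsy-22*, a Groucho-related gene (143.6, with 49.4 and 93.2), followed by *ubc-9*, the SUMO-conjugating enzyme (74.2), and *unc-37*, which encodes Groucho (44.7). The windows of the 8 genes had a median of 5586 bp, against 4027 bp over all genes, and that of *lsy-22* held 11 pooled summits. The part of window length in their shares was not tested. Over these lists of 19, 20, 14 and 8 genes and the 15 other T-box genes, 5 genes had an optimal summit, against 3.37% of all genes. With the 595 highest regions of replicate 4 in place of the optimal list there were 5 such genes, and with those of replicate 3 there were 2. No share over all genes is given for these replicate regions, so nothing is read from the change.

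The genes nearest to *tbx-38* by rank among those with an optimal region in a promoter were *C47E8.11* and *gasr-8*, which share 1 region at rank 418, and *eif-3.B*, a subunit of translation initiation factor 3, at rank 417. The shared region had a signal of 61.4 in replicate 3 and 31.7 in replicate 4, and that of *eif-3.B* 56.3 and 35.5. The log2 ratio of replicate 3 to replicate 4 at *tbx-38*, 0.11, was within the spread of all 595 optimal regions, whose median was 0.01 and SD 0.50.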

How the data were processed

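Regions of the ETS-7 ChIP-seq in 2 biological replicates were taken from 4 deposited lists on ce11. Per the deposited file descriptions, the pooled and replicate lists hold peaks and background as input for irreproducible discovery rate (IDR) analysis, and the optimal list is the IDR-thresholded one made from all 3. No source used here names the aligner or peak caller, or how the values were scaled. The authors' deposited signal of each region was used within a list and to set replicates side by side. Depth is unknown, since no read counts are in the lists.

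Coordinates are 1-based on ce11 (WBcel235), with Ensembl 115 genes and the RefSeq genome of that assembly. A replicate region was matched to a pooled one by overlap of at least 1 bp, nearest summit first. Motifs were searched on both strands. Coding and upstream sequences were aligned globally with Biopython 1.88. No test was made, as there is 1 group and the members were chosen with earlier results of these data known, as were the gene lists. The name *tbx-42* is not in the annotation, where *tbx-30* names 2 genes, both counted. All members, all listed genes with an optimal summit, and otherwise the 2 of highest signal per list are named. *tbx-34*, *tbx-35*, *sea-1*, *glp-1* and *lsy-6* were added after values were seen. Rules were tested on simulated regions with Python 3.11.15.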

Additional observations from a re-analysis of the deposited data

How the results depend on the processing

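Of 44 alternatives over 10 results, 34 left the value within its limits, which differed by result. For example, 46 other listed genes with a pooled summit, at 5000 bp upstream, was within the limit around 36. The limit for the median percentile was 23.6 points, the SD between the replicates' own medians. The outcome was fixed for 50-base stretches, as all 36-base stretches occurred once. It was also fixed for small RNA genes within 1000 bp, as the closest was 6651 bp away. Counting promoters alone, pooled summits were found for 3 of the 7 T-box genes and 22 of the other listed genes (36 with the whole window). Over all genes the shares were 21.5% in promoters and 40.0% with the whole window. Optimal summits in promoters were found for 1 of the other listed genes (5 with the whole window, where the share of all genes was 3.37%). With only the optimal regions above that list's median signal, 0 of the 7 genes and 1 of the others had a summit. Leaving out 1 replicate gave 2 to 5 of the others with a summit among the 595 highest regions, and placed *tbx-38* above 96.7% to 97.3% of the remaining replicate's regions. No share over all genes is given for single replicates, the 5000 bp window, optimal summits in promoters or optimal regions above the median. The counts under these settings are therefore not read as results about the genes. Keeping only pooled regions above the median signal, which drops low regions by construction, raised the median percentile to 79.7. CCGGAA within 50 bp of the summit was found for 1 gene in place of 2, against 8.87% of pooled and 11.9% of optimal regions. GGAA within 100 bp was found for 5, which are all the genes with a pooled region. It was present in 87.6% of pooled and 79.3% of optimal regions. No paired analysis was possible because there is 1 group. The count of 2 replicates and unknown depth limit all values, and regions absent from a list may hold signal below its threshold.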
